A study of Mus musculus with 4 samples.

Results

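The interleukin-6 (IL-6) family of cytokines, its receptor chains and its feedback inhibitor SOCS3 were examined in mouse bone marrow stromal cells. The set comprised 9 genes fixed by name: the ligand genes Il6, Il11, Lif and Clcf1, the receptor genes Il6st, Lifr and Osmr, the transcription factor gene Stat3 and the feedback gene Socs3. Probe sets were taken whose only platform gene symbol was one of these names, which gave 10 probe sets, 1 per gene and 2 for Socs3, out of 41345 probe sets on the array and 22180 genes with a probe set of their own.

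In all, 4 groups of mesenchymal stem cells (MSCs) derived from bone marrow were compared, with 1 Affymetrix array each: Snail1-KO MSCs given TGF-b1 for 2 h, untreated Snail1-KO MSCs, Snail1-WT MSCs given TGF-b1 for 2 h, and untreated Snail1-WT MSCs. Snail1 is a zinc finger repressor encoded by Snai1, and TGF-b1 is a cytokine that signals through SMAD proteins. The sources used here do not give the age and strain of the mice, the way in which Snai1 was inactivated or whether the 2 cultures of a genotype came from different animals. With 1 array per group no p-value is given for any comparison, and a difference between genotypes cannot be told apart from a difference between the cell populations that carried them.

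IL-6 family cytokines signal through the shared receptor chain gp130, the product of Il6st. IL-6 and IL-11 bind their own non-signalling receptor and then a gp130 pair, whereas LIF and CLCF1 use gp130 together with the LIF receptor, and oncostatin M uses gp130 together with its own receptor chain OSMR. The activated receptor switches on JAK kinases, which phosphorylate STAT3; STAT3 in turn induces SOCS3, which binds gp130 and the JAKs and dampens the signal. Stromal cells of the bone marrow are a known source of IL-6, IL-11 and LIF, cytokines that act on blood-forming cells, osteoblasts and osteoclasts.

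Values are RMA log2 values, on which a difference of 1 is 2-fold. Because probe sets differ in how they hybridise, levels are compared between arrays for the same gene and never between genes. All 9 members were among the 13308 genes kept, the 60% with the highest mean over the arrays, whose lowest mean was 4.51. As a measure of error, a noise SD for the difference between 2 arrays was estimated from genes of like level, from how far the response to TGF-b1 in Snail1-KO cells departed from that in Snail1-WT cells. It ran from 0.08 to 0.25 over the kept genes, and it leaves out any variation that both arrays of a genotype, or both treated arrays, had in common. The array medians lay between 4.58 and 4.63. Snai1 itself measured 5.34 in treated and 5.09 in untreated Snail1-KO cells, against 7.63 in treated and 6.69 in untreated Snail1-WT cells, so the targeted gene was lower in both arrays labelled Snail1-KO.

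Sequences just upstream of 4 of the members are shown because the members concerned behaved differently: the 3 ligand genes Il6, Il11 and Lif were higher after TGF-b1 in both genotypes, and Socs3, the feedback gene, was not. The sequences are the 250 bases before the annotated start of the gene in RefSeq, build GRCm38.p6, read 5′ to 3′ on the strand of the gene. Of the 9 members, 8 matched an entry by symbol. Clcf1, also a ligand gene that was higher after TGF-b1 in both genotypes, did not and has no window. Capitals mark matches to the AP-1 element TGANTCA, the cyclic AMP element TGACGTCA, the STAT element TTCNNNGAA, an NF-kB element (GGG, 2 bases of any kind, TT, 1 base of any kind and CC), a C/EBP element TTGCNNAA and the E-box CAGGTG that Snail proteins bind, searched on both strands; no 2 of these matches overlap in the sequences shown.
Il6 (chr5:30012864-30013113, plus strand): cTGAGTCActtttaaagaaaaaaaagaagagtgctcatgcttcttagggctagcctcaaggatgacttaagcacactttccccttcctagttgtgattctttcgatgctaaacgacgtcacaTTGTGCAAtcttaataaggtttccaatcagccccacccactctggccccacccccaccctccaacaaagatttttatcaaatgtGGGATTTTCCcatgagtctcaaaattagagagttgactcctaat
Il11 (chr7:4778142-4778391, minus strand): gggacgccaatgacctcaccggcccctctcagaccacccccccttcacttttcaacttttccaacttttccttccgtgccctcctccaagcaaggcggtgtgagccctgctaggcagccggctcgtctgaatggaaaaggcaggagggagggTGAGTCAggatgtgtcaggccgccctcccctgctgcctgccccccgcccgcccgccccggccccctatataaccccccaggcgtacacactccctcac
Lif (chr11:4257318-4257567, plus strand): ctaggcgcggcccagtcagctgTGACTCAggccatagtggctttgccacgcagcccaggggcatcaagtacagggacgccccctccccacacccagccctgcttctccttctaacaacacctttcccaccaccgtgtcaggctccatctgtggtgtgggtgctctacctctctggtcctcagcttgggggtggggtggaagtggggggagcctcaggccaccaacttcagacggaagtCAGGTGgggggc
Socs3 (chr11:117969367-117969616, minus strand): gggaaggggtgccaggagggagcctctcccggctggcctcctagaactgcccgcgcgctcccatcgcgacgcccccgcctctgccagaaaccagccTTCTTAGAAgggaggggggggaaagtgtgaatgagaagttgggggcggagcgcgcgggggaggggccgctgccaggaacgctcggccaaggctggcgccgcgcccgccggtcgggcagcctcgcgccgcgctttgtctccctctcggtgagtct

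Each of the 3 ligand genes shown, which leave out Clcf1, held an AP-1 match in its printed window. This was TGAGTCA beginning 249 bases before the start of Il6 and 98 bases before that of Il11, and TGACTCA beginning 228 bases before that of Lif. AP-1 matches were present in 6.75% of 32851 such windows of all genes. Il11 has a further RefSeq start whose window, chr7:4782858-4783107, held none of these matches, and the Il11 window with the match was picked for printing after both had been searched. The Il6 window also held an NF-kB match, GGGATTTTCC, 44 bases before the start, and a C/EBP match, TTGTGCAA, 128 bases before it, present in 4.11% and 9.56% of all windows. The E-box that Snail proteins bind was found 12 bases before the start of Lif, in 17.2% of all windows, and not in the windows of Il6, Il11 or Socs3 shown. Socs3 held a STAT match, TTCTTAGAA, 154 bases before its start, a match present in 7.02% of all windows. The windows of Il6st, Osmr and Stat3, and that of the upstream start of Lifr, held none of the 6 elements, and the window of the other Lifr start held the E-box. The short SMAD element CAGAC, which 42.2% of all windows hold, is not capitalised; it occurred in the windows of Il11 and Lif and was not found in those of Il6 and Socs3. These matches describe the letters in the windows and say nothing of binding in these cells. The windows were picked with the responses known, and a link between matches and responses was not tested.

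The first question was how the family responded to 2 h of TGF-b1 in each genotype. The 4 ligand genes were all higher after TGF-b1 in both genotypes, with Il6 far ahead of the others; the receptor genes Il6st and Lifr were slightly lower in both, Osmr was slightly higher in Snail1-KO cells, and Stat3 and Socs3 moved little by their main probe sets. At least 2-fold higher were 1 of 9 members in Snail1-KO cells (Il6), where 0.999% of all kept genes were, and 2 of 9 in Snail1-WT cells (Il6 and Il11), where 0.714% were. Il11 passed the filter only through its treated arrays, as both untreated values lay below 4.51, so its place in these counts is less certain. No member was at least 2-fold lower in either genotype, against 0.308% of kept genes in Snail1-KO and 0.271% in Snail1-WT cells. Il6 was at least 2-fold higher in both genotypes, as were 0.511% of kept genes. At least 1.5-fold higher were 3 of 9 members in Snail1-KO cells (Il6, Il11 and Clcf1), where 3.31% of kept genes were, and 3 in Snail1-WT cells (Il6, Il11 and Lif), where 2.48% were.

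**Figure D1:**
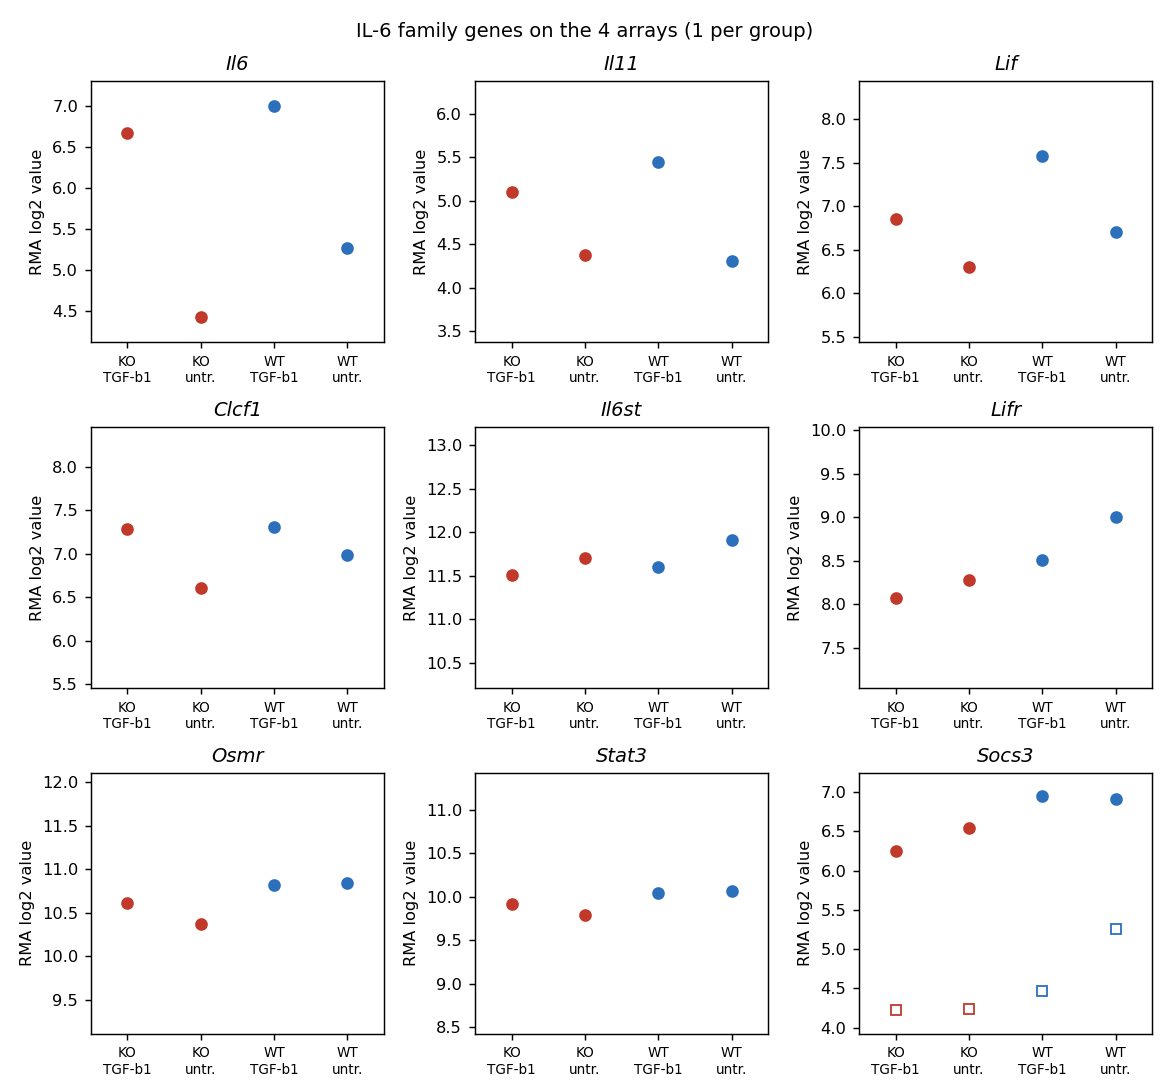
RMA log2 values of the 9 genes (vertical axes, at least 3 log2 units high) on the arrays of treated and untreated Snail1-KO cells (red) and of treated and untreated Snail1-WT cells (blue), 1 point per array; open squares are the dimmer probe set of Socs3. Il6 was highest on the 2 treated arrays, at 6.67 and 7.0, and for each of Il6st, Osmr and Stat3 the 4 values lay within 0.5 of each other.

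Il6 encodes the founding member of the family, a cytokine of inflammation, bone turnover and blood formation. It measured 6.67 in treated and 4.43 in untreated Snail1-KO cells, against 7.0 in treated and 5.27 in untreated Snail1-WT cells. Both treated arrays lay above both untreated arrays. The response was 2.24 (4.72-fold) in Snail1-KO cells, the 10th largest increase of 13308 genes, and 1.73 (3.31-fold) in Snail1-WT cells, the 14th largest. With a noise SD of 0.18 at its level, these were 12.6 and 9.74 noise SDs. The value in untreated Snail1-KO cells was under the filter's limit of 4.51, so the size of their increase is less certain.

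Il11 encodes a ligand of the same gp130 type as IL-6, best known in mesenchymal cells for its place downstream of TGF-b. It measured 5.10 in treated and 4.37 in untreated Snail1-KO cells, against 5.45 in treated and 4.31 in untreated Snail1-WT cells. The 2 untreated values differed by less than the noise SD of 0.22 and both lay below 4.51, so the sizes of both increases are less certain. The response was 0.73 (1.66-fold, 3.36 noise SDs) in Snail1-KO cells and 1.14 (2.21-fold, 5.28 noise SDs) in Snail1-WT cells. It ranked 274th and 66th among the increases.

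Lif encodes leukaemia inhibitory factor, which signals through the gp130 and LIF receptor pair. It measured 6.85 in treated and 6.30 in untreated Snail1-KO cells, against 7.57 in treated and 6.70 in untreated Snail1-WT cells. Its response was 0.55 (1.46-fold) in Snail1-KO cells and 0.87 (1.82-fold) in Snail1-WT cells, 4.07 and 6.43 times a noise SD of 0.13. The treated Snail1-KO array and the untreated Snail1-WT array differed by little more than 1 noise SD, and the other neighbours in the order of the 4 values were further apart.

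Clcf1 encodes cardiotrophin-like cytokine factor 1, a ligand that is secreted with a partner protein and uses the LIF receptor and gp130 beside the CNTF receptor. It measured 7.28 in treated and 6.60 in untreated Snail1-KO cells, against 7.31 in treated and 6.99 in untreated Snail1-WT cells. The response was 0.68 (4.52 noise SDs) in Snail1-KO cells and 0.32 (2.16 noise SDs) in Snail1-WT cells. The 2 treated arrays differed by 0.03, less than the noise SD of 0.15.

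**Figure D2:**
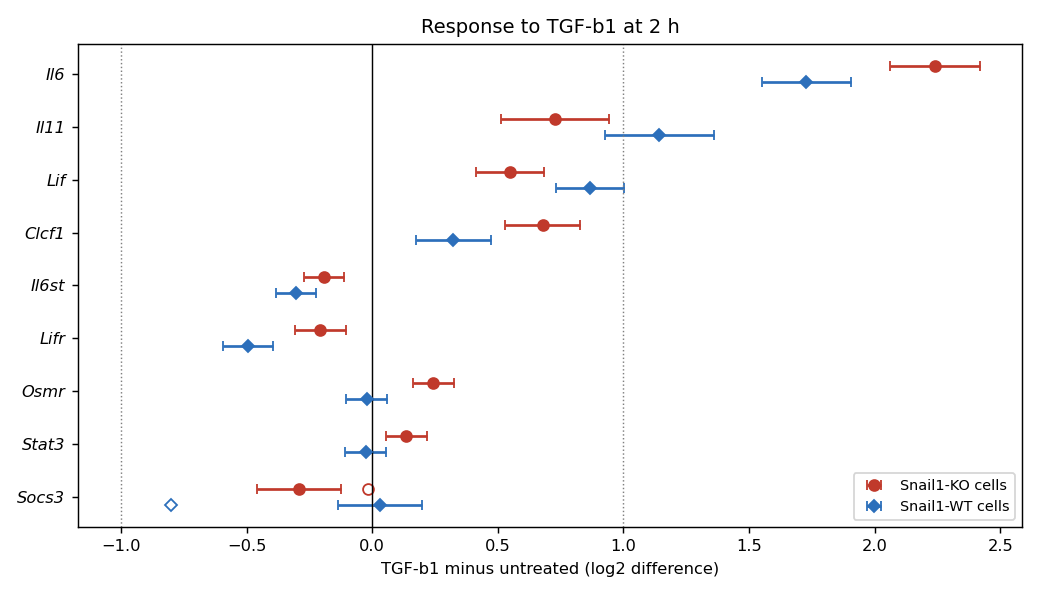
Log2 difference between treated and untreated cells (horizontal axis) for each gene in Snail1-KO cells (red circles) and Snail1-WT cells (blue diamonds); bars are 1 noise SD to each side, open symbols the dimmer Socs3 probe set, and dotted lines mark 2-fold. The 4 ligand genes lie right of 0 in both genotypes, from 0.32 to 2.24, and Il6st and Lifr lie left of 0 in both.

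Of the receptor genes, Il6st and Lifr were lower after TGF-b1 in both genotypes, and Osmr was higher in Snail1-KO cells. Il6st measured 11.5 in treated and 11.7 in untreated Snail1-KO cells, against 11.6 in treated and 11.9 in untreated Snail1-WT cells. That is a response of -0.19 in Snail1-KO and -0.31 in Snail1-WT cells, which amounts to 2.44 and 3.85 times a noise SD of 0.08. Lifr, the LIF receptor gene, measured 8.07 in treated and 8.28 in untreated Snail1-KO cells, against 8.51 in treated and 9.01 in untreated Snail1-WT cells. Its response was -0.21 in Snail1-KO cells and -0.49 in Snail1-WT cells, 2.05 and 4.93 times a noise SD of 0.10. The 4 values of Lifr kept 1 order, with both Snail1-KO arrays below both Snail1-WT arrays and treated below untreated within each genotype. Osmr, the oncostatin M receptor gene, measured 10.6 in treated and 10.4 in untreated Snail1-KO cells and 10.8 in both Snail1-WT groups. Its response of 0.24 in Snail1-KO cells was more than 2 noise SDs of 0.08, in the direction of the ligand genes. That of -0.02 in Snail1-WT cells was less than 1 noise SD.

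Stat3 encodes the transcription factor that the receptors activate by phosphorylation, an event that arrays do not measure. It measured 9.92 in treated and 9.79 in untreated Snail1-KO cells, against 10.04 in treated and 10.06 in untreated Snail1-WT cells. The responses of 0.14 and -0.03 were below 2 noise SDs of 0.08 in both genotypes. Socs3 measured 6.25 in treated and 6.55 in untreated Snail1-KO cells, against 6.95 in treated and 6.91 in untreated Snail1-WT cells by its brighter probe set. The responses of -0.29 and 0.03 were 1.76 and 0.19 times a noise SD of 0.17. By this probe set neither response was beyond 2 noise SDs, on arrays where Il6 was 4.72-fold and 3.31-fold higher.

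The dimmer probe set of Socs3 did not match the brighter probe set in Snail1-WT cells. It measured 4.22 in treated and 4.24 in untreated Snail1-KO cells, against 4.46 in treated and 5.26 in untreated Snail1-WT cells. Its response was -0.02 in Snail1-KO and -0.80 in Snail1-WT cells, where the brighter probe set gave 0.03. With a noise SD of 0.22 at its level, the Snail1-WT response was 3.62 noise SDs and the Snail1-KO response was below 1, so whether Socs3 responded in Snail1-WT cells depended on the probe set. Of these 4 values 3 lay below 4.51. Both probe sets were lower in Snail1-KO than in Snail1-WT cells, with and without TGF-b1.

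Set against the noise SD, 5 of 9 members were more than 2 noise SDs higher and 2 lower in Snail1-KO cells, where 11.6% of kept genes were higher and 10.5% lower. In Snail1-WT cells 4 were higher and 2 lower, where 8.6% of kept genes were higher and 11.3% lower. More than 2 noise SDs higher after TGF-b1 in both genotypes were 4 of 9 members, all of them ligand genes, where 5.91% of kept genes were. More than 2 noise SDs lower in both were 2 members, Il6st and Lifr, where 4.97% were. The median response of the 4 ligand genes was 0.70 in Snail1-KO and 1.005 in Snail1-WT cells, and that of the 3 receptor genes was -0.19 and -0.31. The ligand medians include Il11, which passed the filter only through its treated arrays. The median of all kept genes was -0.02 in Snail1-KO and -0.03 in Snail1-WT cells.

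The next comparison was between genotypes. Nearly all of the family was lower in Snail1-KO than in Snail1-WT cells, by modest amounts. These were all 9 members with TGF-b1 and 8 of 9 without it. Il11 was the exception at 0.07, where both its values lay below 4.51. Below 0 were 50.4% of kept genes with and 50% without TGF-b1. The members' median difference was -0.33 with and -0.39 without TGF-b1, against a median of 0.00 over all kept genes in each pair. Counted by main probe sets, no member was at least 2-fold lower in either pair, against 0.631% of kept genes with and 0.744% without TGF-b1. None was at least 2-fold higher either, against 1.07% and 0.827%. Of kept genes, 0.473% were 2-fold lower or more in both pairs and 0.556% were higher by that much, and no member was among them. At least 1.5-fold lower were 2 of 9 members with TGF-b1 (Lif and Socs3), where 3% of kept genes were, and 2 without it (Il6 and Lifr), where 3.13% were. More than 2 noise SDs lower were 4 members with TGF-b1 and 8 without it, where 14% and 15% of kept genes were. The noise SD leaves out variation that both arrays of a genotype had in common, which a genotype difference includes.

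**Figure D3:**
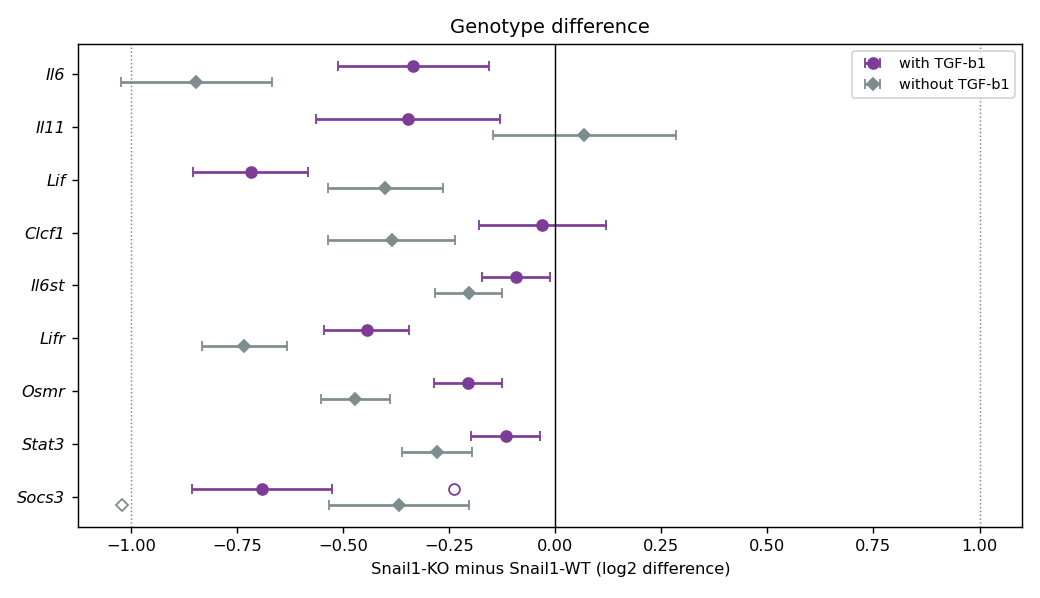
Log2 difference between Snail1-KO and Snail1-WT cells (horizontal axis) for each gene with TGF-b1 (purple circles) and without it (grey diamonds); bars are 1 noise SD to each side, open symbols the dimmer Socs3 probe set, and dotted lines mark 2-fold. All points but that of Il11 without TGF-b1 lie left of 0. Lif, Lifr, Osmr and, by its brighter probe set only, Socs3 lie more than 2 noise SDs left of it in both pairs.

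The 2 pairs of arrays share no array, but each sets Snail1-KO against Snail1-WT cells. Whether the 2 cultures of a genotype came from different animals is not known, so the pairs cannot be taken as independent repeats. Whatever else set the Snail1-KO cultures apart from the Snail1-WT cultures could show in each pair, and this was not tested. Below 0 in both pairs were 8 of 9 members, where 36.4% of kept genes were. More than 2 noise SDs lower in both were 4 members, Lif, Lifr, Osmr and, by its brighter probe set, Socs3, where 8.71% of kept genes were. Lif differed by -0.72 with and -0.40 without TGF-b1, which is 5.33 and 2.97 noise SDs. Only 204 kept genes had a lower difference than Lif with TGF-b1. Socs3 differed by -0.69 with and -0.37 without, or 4.17 and 2.22 noise SDs. Its dimmer probe set gave -0.24 and -1.02, or 1.1 and 4.62 noise SDs, so with TGF-b1 it was not beyond 2.

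The receptor genes were lower in Snail1-KO cells in the same manner. Lifr differed by -0.44 with TGF-b1 and -0.73 without it, 4.42 and 7.30 noise SDs. Osmr differed by -0.21 and -0.47, 2.54 and 5.81 noise SDs. Il6st, the chain that all these ligands share, differed by only -0.09 and -0.20, and Stat3 by -0.12 and -0.28. Without TGF-b1 these 2 differences were 2.58 and 3.40 noise SDs, and with TGF-b1 they were below 2.

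Il6 differed between genotypes by -0.85 (0.56-fold) in untreated cells, the 152nd lowest of 13308, and by -0.33 (0.79-fold) in treated cells. These are 4.77 and 1.88 noise SDs. The untreated Snail1-KO value of Il6 lay below 4.51, so the size of its difference without TGF-b1 is less certain. Clcf1 behaved alike, at -0.39 without TGF-b1 (2.57 noise SDs) and -0.03 with it (0.20 noise SDs). In both genes the treated cells of the 2 genotypes were closer than the untreated cells. Il11 was the reverse, at 0.07 without TGF-b1 and -0.35 with it, both below 2 noise SDs. Its untreated values both lay below 4.51, so its sign without TGF-b1 is not settled.

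Whether the response to TGF-b1 differed between genotypes was addressed by subtracting the response in Snail1-WT cells from that in Snail1-KO cells, which uses all 4 arrays. The difference was 0.51 for Il6, 0.35 for Clcf1, -0.42 for Il11 and -0.32 for Lif. For the receptor genes it was 0.29 for Lifr, 0.27 for Osmr and 0.11 for Il6st, and it was 0.16 for Stat3. For Socs3 it was -0.32 by the brighter and 0.78 by the dimmer probe set, so that its direction is not settled. No member differed by 2-fold or more, against 0.105% of kept genes at least 2-fold higher and 0.233% at least 2-fold lower. In units of the noise SD of such a difference, Osmr was highest at 2.31, followed by Il6 at 2.04 and Lifr at 2.03. The other 6 were below 2 by their main probe sets, and the dimmer probe set of Socs3 was at 2.51. The noise SD was itself taken from these differences over genes of like level, so these figures only place a member among such genes. For Il6 in untreated Snail1-KO cells and Il11 in both untreated groups the values lay below 4.51. The sizes of their differences of responses are therefore less certain.

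The genes with 4 array values most like those of a member were taken from the kept genes by the smallest Euclidean distance, after each gene was centred on its own mean. Nearest to Il6 were Tnfrsf11b (0.20), which encodes the osteoclast inhibitor osteoprotegerin, the matricellular gene Ccn4 (0.28), the EGF receptor ligand gene Hbegf (0.35), the inhibitory SMAD gene Smad7 (0.41) and the transcription factor gene Runx1 (0.46). Tnfrsf11b measured 7.33 in treated and 4.82 in untreated Snail1-KO cells, against 7.57 in treated and 5.76 in untreated Snail1-WT cells. Nearest to Il11 were Trabd2b (0.08), Csrp2 (0.13), Glis1 (0.14), the hyaluronan synthase gene Has1 (0.15) and Ubtd1 (0.16). Nearest to Lif were the sterol transporter gene Abcg1 and the adhesion molecule gene Mcam (both 0.09), then Adamts16 (0.12), the T-box factor gene Tbx3 (0.13) and Unc93a2 (0.15). Nearest to Socs3 were Snrpa1, Entpd6 and the interleukin-1 receptor gene Il1r1 (each 0.06), Cdca7 (0.07) and Zfp719 (0.07). Distances are in log2 units over 4 arrays, too few to tell a shared pattern from a chance likeness.

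The rest of the pathway was read from lists chosen with earlier results of these data known. Among 8 other ligand genes of the family 6 were measured and 3 were kept, Ctf1, Il27 and Ebi3, and none of the 3 was 2-fold apart in any comparison. Their response to TGF-b1 ran from -0.26 to 0.12 in Snail1-KO cells and from 0.01 to 0.24 in Snail1-WT cells. Of the 6 measured, 3 were lower in Snail1-KO than in Snail1-WT cells with TGF-b1 and 1 without it, where 50.4% and 50% of kept genes were. The count depends on the probe set of Ebi3, which differed by 0.08 with and 0.23 without TGF-b1. Its dimmer probe set gave -0.28 and -0.12. Osm, the gene of oncostatin M, lies next to Lif on chromosome 11 with 0 protein-coding genes between them in the RefSeq gene order of GRCm38.p6. It measured 4.40 in treated and 4.59 in untreated Snail1-KO cells, against 4.48 in treated and 4.55 in untreated Snail1-WT cells, and did not pass the filter on low values. Its response was -0.19 in Snail1-KO and -0.07 in Snail1-WT cells, beside 0.55 and 0.87 for Lif.

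Among 6 other receptor chain genes 4 were measured and all 4 were kept. None was 2-fold apart in either response. The interleukin-31 receptor gene Il31ra, which lies next to Il6st on chromosome 13, measured 4.15 in treated and 4.16 in untreated Snail1-KO cells, against 4.78 in treated and 5.30 in untreated Snail1-WT cells. It was the sole gene of the list at least 2-fold apart between genotypes, at -1.13 without TGF-b1, and it differed by -0.64 with TGF-b1. Cntfr, the CNTF receptor gene through which CLCF1 acts, measured 4.71 in treated and 4.72 in untreated Snail1-KO cells, against 5.50 in treated and 5.71 in untreated Snail1-WT cells. Its differences of -0.79 and -0.99 were 3.88 and 4.87 noise SDs. Both Snail1-KO values of Il31ra lay below 4.51. Il6ra, the receptor through which IL-6 itself is bound, differed by 0.03 and 0.00 between genotypes and responded to TGF-b1 by 0.24 in Snail1-KO and 0.21 in Snail1-WT cells. Il27ra, a chain of the interleukin-27 receptor, differed by -0.22 with and 0.11 without TGF-b1.

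Of 9 measured kinase, STAT and adaptor genes none was 2-fold apart in any comparison. The phosphatase gene Ptpn11, whose product SHP2 binds gp130, differed between genotypes by -0.42 with and -0.53 without TGF-b1. Jak1, the main kinase of gp130, differed by -0.19 and -0.25, Jak2 by 0.16 and 0.08, the adaptor gene Shc1 by 0.24 and 0.06, and Tyk2 by 0.62 and 0.48. Stat5a and Stat5b lie beside Stat3 on chromosome 11. Stat5b measured 7.80 in treated and 7.37 in untreated Snail1-KO cells, against 7.80 in treated and 7.79 in untreated Snail1-WT cells.

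Of 11 feedback inhibitor genes beside Socs3 none was 2-fold apart in any comparison. The largest responses were those of the cytokine-inducible inhibitor gene Cish, at 0.95 in Snail1-KO and 0.88 in Snail1-WT cells, but the dimmer probe set of Cish gave 0.06 and -0.09. Socs2 responded by 0.33 in Snail1-KO and 0.71 in Snail1-WT cells. Socs5 differed between genotypes by -0.65 with and -0.76 without TGF-b1, 5.83 and 6.83 noise SDs. Of the PIAS genes, whose products inhibit activated STATs, Pias2 differed by -0.22 and -0.32, Pias1 by 0.12 and 0.09, and Pias4 by 0.03 and 0.17.

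Among 20 genes known as STAT3 targets in various cell types, 2 were at least 2-fold higher after TGF-b1 in each genotype. Of all kept genes, 0.999% were in Snail1-KO and 0.714% in Snail1-WT cells. The 2 were the early response genes Ier3 (1.52 in Snail1-KO and 1.34 in Snail1-WT cells) and Junb (1.33 and 1.13). Both are induced by many other signals as well. The STAT3 target Bcl3, a cofactor of NF-kB, was lower after TGF-b1, at -0.56 in Snail1-KO and -0.70 in Snail1-WT cells. The median response of the list was 0.19 in Snail1-KO and 0.10 in Snail1-WT cells. Between genotypes, none of the 20 was 2-fold apart. Lower in Snail1-KO cells were 17 with and 16 without TGF-b1, where 50.4% and 50% of kept genes were. The medians of the list were -0.24 and -0.34. The metalloproteinase inhibitor gene Timp1 differed by -0.73 and -0.76, the siderophore-binding lipocalin gene Lcn2 by -0.61 and -0.70, and Myc by -0.65 and -0.61. The survival gene Mcl1 differed by -0.15 and 0.06, and the hypoxia factor gene Hif1a by -0.06 and -0.34. The dimmer probe set of Mcl1 gave 0.33 with and -0.36 without TGF-b1, the opposite signs.

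**Figure D4:**
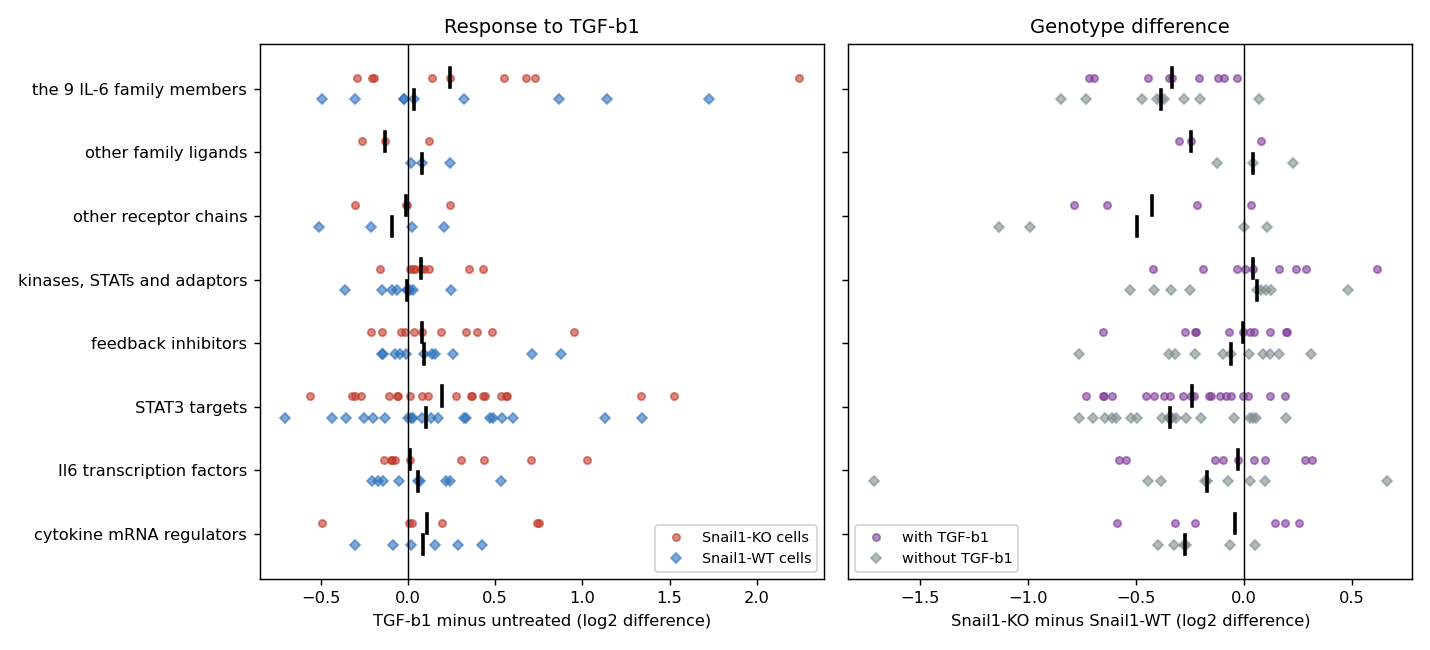
Log2 differences (horizontal axes) of single kept genes, with treated minus untreated cells on the left (Snail1-KO red circles, Snail1-WT blue diamonds) and Snail1-KO minus Snail1-WT cells on the right (with TGF-b1 purple circles, without it grey diamonds); vertical bars are medians. Genotype medians, with and without TGF-b1, were -0.33 and -0.39 for the 9 members and -0.24 and -0.34 for the STAT3 targets. They were -0.43 and -0.49 for the other receptor chains and -0.04 and -0.27 for the cytokine mRNA regulators. For the kinases, STATs and adaptors they were 0.04 and 0.06.

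Of 9 measured genes for factors that act on Il6 transcription, 1 was 2-fold apart in any comparison. The zinc finger gene Egr1 measured 8.06 in treated and 7.03 in untreated Snail1-KO cells, against 8.60 in treated and 8.75 in untreated Snail1-WT cells. Its response was 1.03 in Snail1-KO and -0.14 in Snail1-WT cells, and its genotype difference was -0.55 with and -1.71 without TGF-b1. Nfkbiz, whose product is a cofactor of NF-kB at the Il6 promoter, responded by 0.70 and 0.53, while the NF-kB subunit gene Rela responded by -0.09 and -0.18. Cebpb responded by 0.31 and -0.05 and the AP-1 gene Fosl2 by 0.44 and 0.22. The AP-1 genes Jun and Jund responded by -0.08 and 0.01 in Snail1-KO cells and by 0.06 and -0.21 in Snail1-WT cells. Jun differed between genotypes by -0.58 with and -0.44 without TGF-b1, and Jund by 0.32 and 0.10. The dimmer probe set of Jund gave -0.19 and -0.16, so the direction of its genotype difference is not settled. Its responses were -0.25 in Snail1-KO and -0.23 in Snail1-WT cells.

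None of 6 genes for proteins that stabilise or destroy cytokine mRNA was 2-fold apart in any comparison. Arid5a, whose product stabilises Il6 mRNA, responded by 0.74 in Snail1-KO and 0.42 in Snail1-WT cells. Zfp36, whose product promotes decay of such mRNA, responded by 0.75 and 0.28. Zc3h12a, which encodes the RNase Regnase-1, responded by 0.01 and -0.09. Zfp36l1, a relative of Zfp36, was lower after TGF-b1, at -0.50 and -0.31, and differed between genotypes by -0.59 with and -0.40 without TGF-b1. Its dimmer probe set gave responses of -0.35 in Snail1-KO and -0.02 in Snail1-WT cells. Between genotypes it gave -0.37 with and -0.03 without TGF-b1. The RNA-binding protein genes Khsrp and Elavl1 responded by 0.02 and 0.20 in Snail1-KO cells and by 0.02 and 0.16 in Snail1-WT cells. Khsrp differed between genotypes by -0.32 in both pairs, and Elavl1 by -0.23 with and -0.27 without TGF-b1.

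Markers of the labelled cell type and of other possible sources of these cytokines were read beside these results. Of 9 measured mesenchymal stromal markers 8 were kept, and Nt5e was not. The mean level of the 9 was 9.24 in treated and 9.15 in untreated Snail1-KO cells, against 9.35 in treated and 9.29 in untreated Snail1-WT cells. The kept markers did not move as 1 group: their responses ran from -0.60 (Pdgfra) to 0.69 (Pdgfrb) in Snail1-KO cells and from -0.47 to 0.63, by the same 2 genes, in Snail1-WT cells. Between genotypes they ran from -0.50 (Pdgfra) to 0.40 (Vim) with TGF-b1 and from -0.37 to 0.23, again Pdgfra and Vim, without it. Of 9 measured leukocyte and macrophage markers 4 were kept. Their mean level was 4.53 in treated and 4.59 in untreated Snail1-KO cells, against 4.50 in treated and 4.45 in untreated Snail1-WT cells. Below 4.51 on all 4 arrays were 4 of the 9, Adgre1, Itgam, Mpo and Ptprc, the last of which marks all leukocytes and ran from 3.15 to 3.78. Cd68 measured 6.05 to 6.23. Cd14 measured 6.12 in treated and 6.59 in untreated Snail1-KO cells, against 5.53 in treated and 6.17 in untreated Snail1-WT cells, so it was lower after TGF-b1 and higher in Snail1-KO cells. Lyz2, which was not kept, was higher on both counts. It measured 4.82 in treated and 4.12 in untreated Snail1-KO cells, against 4.11 in treated and 3.58 in untreated Snail1-WT cells. Other markers went the other way: Csf1r differed between genotypes by -0.55 with and -0.12 without TGF-b1. Of the 9, 6 were lower in Snail1-KO cells with TGF-b1 and 3 without it, beside 50.4% and 50% of kept genes. The mean level of 6 endothelial markers was 4.28 in treated and 4.25 in untreated Snail1-KO cells, against 4.32 in treated and 4.31 in untreated Snail1-WT cells. The leukocyte and endothelial means did not differ by more than 0.2 between any 2 arrays, and the part of such cells in the results was not tested. In RNA of whole cultures, fewer cells that express a gene and less RNA of it per cell cannot be told apart.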

How the data were processed

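Total RNA of 4 cultures was labelled with the GeneChip WT PLUS kit and measured on 1 Affymetrix array each, per the labels' protocols. The deposited log2 values come from RMA, run in R 3.1.1 according to the submitters' processing notes; RMA equalises the arrays, so a shift of most genes in 1 direction would be removed. The sources used here give no genome build, annotation version or detection calls. The number of arrays limits the precision.

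Groups came from sample titles. Of 41345 probe sets 23521 had 1 gene symbol in the platform annotation, 1814 had several and 16010 were not named here. A gene with several probe sets was represented by that with the highest mean. Of 22180 genes the 60% with the highest mean were kept (13308). Differences between arrays were taken on the log2 scale and called at 2-fold. The noise SD is the scaled median absolute deviation, over the 500 kept genes nearest in level, of the Snail1-KO response minus the Snail1-WT response, over the square root of 2. The steps were tested on simulated data. Python 3.11.15, numpy 2.4.6, pandas 2.3.3, matplotlib 3.10.9 and, for cyclic loess, limma 3.58.1 in R 4.3.3 were used. All 9 members are reported, as are the 5 genes nearest to each of Il6, Il11, Lif and Socs3, and from each list the genes at least 2-fold apart and the 4 others with the highest mean. Named after their values were seen were Tyk2, Stat5b, Cish, Socs2, Bcl3, Lcn2, Nfkbiz, Cebpb, Arid5a, Zfp36 and the single markers. Predicted gene models, clone names and small RNA symbols were left out of the nearest genes. The members and lists were chosen with earlier results of these data known. Averaging the probe sets of a gene, centring arrays on their median, cyclic loess, a 1.5-fold call and filters that kept 40% or all of the genes were tried as alternatives.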

Additional observations from a re-analysis of the deposited data

Results flagged for a closer look

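For 3 members the response to TGF-b1 had opposite signs in the 2 genotypes, with 1 array per group and no test of the difference. Osmr responded by 0.24 in Snail1-KO and -0.02 in Snail1-WT cells, a difference of 0.27. Stat3 responded by 0.14 and -0.03, a difference of 0.16. Socs3 responded by -0.29 and 0.03, a difference of -0.32, by its brighter probe set. Its dimmer probe set responded by -0.02 and -0.80, of 1 sign, a difference of 0.78, and the mean of both probe sets gave 0.23, so the direction of the Socs3 difference turns with the probe set. In Snail1-WT cells these 3 responses by the main probe sets were smaller than 1 noise SD, so that their signs there are not settled. For Il11 the genotype difference had opposite signs, at -0.35 with and 0.07 without TGF-b1, a difference of -0.42 that was not tested and was 1.36 times its noise SD. Both untreated Il11 values lay below 4.51.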

How the results depend on the processing

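Median centring and cyclic loess left the number of members at least 2-fold apart unchanged in each comparison and moved no single difference by more than 0.06, but with median centring the responses of Osmr and Stat3 in Snail1-WT cells turned to 0.02 each. The mean of all probe sets changed Socs3 alone, whose response in Snail1-WT cells became -0.38 and whose difference of responses became 0.23. With TGF-b1 all 9 members were lower in Snail1-KO cells under each of these 3 settings, and without it 8 were. At 1.5-fold, 3 members were called in the Snail1-KO response and 3 in the Snail1-WT response, all higher, as were 3.31% and 2.48% of kept genes. In each genotype pair 2 were called, all lower (Lif and Socs3 with TGF-b1, Il6 and Lifr without), as were 3% and 3.13% of kept genes. None was called in both pairs or in the difference of responses, for which shares at 1.5-fold were not taken. With no filter the counts stayed as they were, and with 40% of genes kept Il11 was lost, which left 1 member called in the Snail1-WT response. Calling members at more than 2 noise SDs was chosen after the data were seen. It gave 7 in the Snail1-KO response, where 11.6% of kept genes were higher and 10.5% lower. In the Snail1-WT response it gave 6, where 8.6% were higher and 11.3% lower. Between genotypes it gave 4 with and 8 without TGF-b1, all lower, as were 14% and 15% of kept genes. The dimmer probe set of Socs3, also chosen after the data were seen, added 1 call between untreated genotypes. Noise SDs from 200 or 1000 genes stayed within 1.5 times those from 500. No paired analysis was possible within a comparison because each group had 1 array, and for the same reason no array could be left out. A fit that adds genotype and treatment over all 4 arrays, taking the genotypes as 2 pairs with 1 residual degree of freedom, could be made but was not run.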
